A study of Mus musculus with 35 samples.

Results

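Small RNA of control mouse round spermatids (RS) was compared with that of control pachytene spermatocytes (Spc), to describe how miRNAs, tRNA fragments and piRNAs normally change from meiosis to the haploid stage. The members were the 3 control RS and the 5 control Spc libraries of small RNA, 8 of the 35 samples of the series and 8 of its 16 small RNA libraries, taken by the cell fraction and genotype that name the columns of the count tables. The study deleted the RNA-decay endonuclease SMG6 in male germ cells (Smg6-cKO, Smg6 fx/fx;Ngn3Cre+) and used littermates without Cre as controls (Ngn3Cre-, with either Smg6 fx/fx or Smg6 fx/wt; adult, mixed C57Bl/6J and SV129 background), so that the mice behind these 8 libraries carried at least 1 floxed Smg6 allele and no Cre. Both cell types had been separated by sedimentation through a BSA gradient, and the columns do not say which of the labels' replicates a library is, so libraries are named S18 to S20 (RS) and S26 to S30 (Spc).

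A library held 141642 to 306864 miRNA counts, 43073 to 72831 tRNA fragment counts and 5680461 to 12372524 counts on piRNA clusters, and S20 was the deepest RS library in each of the 3 tables. The small RNA samples are said to be those of the long RNA sequencing, which had 3 libraries per group, so whether the 5 Spc libraries came from 5 separate preparations is not certain and the p-values measure the spread between libraries. All 8 libraries had miRNA, tRNA fragment, cluster and repeat profiles nearer to the mean of the other libraries of their own label than to the mean of the other label. In the long RNA of the same cell fractions (3 libraries each, 75.2% of 18263 tested features called), 9 of 10 round spermatid markers and 10 of 10 late spermatid markers were higher in RS, and 8 of 12 spermatocyte markers were lower and 1, Syce2, higher (154 to 192 CPM in RS, 38.4 to 75.6 CPM in Spc). Markers of other cells were measured in both fractions. The 8 Sertoli cell genes summed to 32.3 to 43.0 CPM in RS and 265 to 753 CPM in Spc and all 8 were lower in RS, and the 6 Leydig cell genes summed to 5.58 to 6.14 CPM in RS and 112 to 381 CPM in Spc and all 6 were lower. Of the 5 erythroid genes 4, the globin genes, were higher in RS and Alas2 was lower, and of the 6 macrophage genes 3 were higher and 1 was lower. The 8 genes of spermatogonia summed to 34.2 to 42.6 CPM in RS and 90.3 to 119.9 CPM in Spc, 4 of them being lower and 0 higher. In bulk RNA of this kind, fewer cells of a type and less RNA per cell cannot be told apart.

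miRNAs are short RNAs that Argonaute proteins use to find messenger RNAs through the seed, bases 2 to 8 of the miRNA, so that miRNAs with a common seed share most targets. piRNAs are somewhat longer, are bound by PIWI proteins and are cut from long precursor transcripts. Pachytene piRNAs, the kind made in bulk from long intergenic loci during male meiosis, persist in round spermatids. tRNA fragments are pieces of mature or precursor tRNAs, and those from the 5' part of the tRNA are known from sperm.

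The miRNAs on which the results turn are printed 5' to 3' from RefSeq (GRCm38.p6), with the seed in capitals, to show which members of a family can share targets. The first set has the seed GGCAGUG.
miR-34b-5p (chr9:51103610-51103632, minus strand): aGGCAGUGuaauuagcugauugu
miR-449a-5p (chr13:113037549-113037570, plus strand): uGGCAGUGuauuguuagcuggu
miR-34a-5p (chr4:150068473-150068494, plus strand): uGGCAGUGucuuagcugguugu
The second set has the seed AGCAGCA of the miR-15/16 family.
miR-16-5p (chr14:61631936-61631957, minus strand and chr3:69009918-69009939, plus strand): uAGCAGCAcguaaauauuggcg
miR-15b-5p (chr3:69009775-69009796, plus strand): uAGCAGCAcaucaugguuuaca
miR-195a-5p (chr11:70235062-70235082, plus strand): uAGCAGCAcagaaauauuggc
miR-322-5p (chrX:53054306-53054327, minus strand): cAGCAGCAauucauguuuugga
The third set has the let-7 seed GAGGUAG. Its members differ in so few bases that counts of single members are uncertain where a read matches several.
let-7a-5p (chr13:48538239-48538260, minus strand): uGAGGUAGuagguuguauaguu
let-7f-5p (chr13:48537889-48537910, minus strand and chrX:151912353-151912374, plus strand): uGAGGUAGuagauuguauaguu
let-7c-5p (chr15:85706616-85706637, plus strand and chr16:77599672-77599693, plus strand): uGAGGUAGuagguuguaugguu
let-7b-5p (chr15:85707325-85707346, plus strand): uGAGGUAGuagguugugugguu
let-7e-5p (chr17:17830366-17830387, plus strand): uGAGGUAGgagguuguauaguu
The fourth set holds the miR-99/100 and miR-125 miRNAs, which lie beside let-7 genes.
miR-99b-5p (chr17:17830194-17830215, plus strand): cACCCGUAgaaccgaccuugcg
miR-100-5p (chr9:41531437-41531458, plus strand): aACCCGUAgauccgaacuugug
miR-125a-5p (chr17:17830817-17830840, plus strand): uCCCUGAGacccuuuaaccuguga
miR-125b-5p (chr16:77646279-77646300, plus strand and chr9:41581940-41581961, plus strand): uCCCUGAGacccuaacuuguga
The fifth set is the miR-200 family, whose members differ in direction by gene cluster.
miR-200a-3p (chr4:156054911-156054932, minus strand): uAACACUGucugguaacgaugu
miR-200b-3p (chr4:156055685-156055706, minus strand): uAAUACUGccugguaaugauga
miR-141-3p (chr6:124717917-124717938, minus strand): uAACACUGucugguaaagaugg
miR-200c-3p (chr6:124718324-124718346, minus strand): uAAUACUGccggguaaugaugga
The last set holds 2 X-linked miRNAs, a miRNA of gonadal somatic cells and a member of the miR-183 cluster.
miR-741-3p (chrX:66796809-66796831, minus strand): uGAGAGAUgccauucuauguaga
miR-547-3p (chrX:67988383-67988403, minus strand): cUUGGUACaucuuugagugag
miR-202-5p (chr7:139957732-139957752, minus strand): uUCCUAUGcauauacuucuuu
miR-183-5p (chr6:30169711-30169732, minus strand): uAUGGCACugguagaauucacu

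For some of the tRNAs named here, the first 30 bases of the mature tRNA gene are printed from the same RefSeq build. They show where a fragment from the 5' end begins; for the nuclear tRNAs the most common version among the gene copies is given with the place of 1 copy.
Asp-GTC (chr1:171037071-171037100, minus strand): tcctcgttagtatagtggtgagtatccccg
Glu-TTC (chr13:23463535-23463564, plus strand): tcccacatggtctagcggttaggattcctg
Gly-GCC (chr1:74816788-74816817, minus strand): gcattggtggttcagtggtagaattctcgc
mitochondrial Gly (chrM:9391-9420, plus strand): actcccttagtataattaatataactgact
mitochondrial Met (chrM:3845-3874, plus strand): agtaaggtcagctaattaagctatcgggcc
The Asp-GTC sequence was shared by 14 of 16 gene copies, Glu-TTC by 4 of 8 and Gly-GCC by 10 of 14.

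RS held smaller shares of miRNAs and tRNA fragments than Spc and a larger share of piRNAs. miRNAs made up 2.41%, 2.31% and 2.41% of the summed miRNA, tRNA fragment and cluster counts in the RS libraries and 3.14%, 3.37%, 3.76%, 3.58% and 3.37% in the Spc libraries. tRNA fragments made up 0.732%, 0.673% and 0.571% in RS and 0.744%, 0.834%, 0.893%, 0.879% and 0.868% in Spc. Cluster counts made up the rest, 97.0% ± 0.0923 in RS (SD, n = 3) and 95.7% ± 0.288 in Spc (SD, n = 5). A miRNA or tRNA fragment read can count under several names while a cluster read is split among positions, so these are shares of counts and not of reads. The groups did not overlap in any of the 3 shares, and each difference had p = 0.0357 in a two-sided exact permutation test over the 56 regroupings of the libraries, the smallest value that 3 against 5 libraries allow (adjusted p = 0.044 over 16 shares).

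Of 251 miRNAs tested with edgeR, 104 (41.4%) were higher and 101 (40.2%) lower in RS at an adjusted p up to 0.05, together 81.7%. Of all 251, 76.9% had groups that did not overlap, and 83 (33.1%) also passed a log2 fold change of 1.5 in size, 22 of them higher and 61 lower. The count minimum in 3 libraries can be met by some of the Spc libraries but needs all RS libraries. A miRNA near 0 in RS could thus enter more easily than a miRNA near 0 in Spc. The split depended on what the libraries were scaled to. Of the 251, 26.7% were higher and 50.2% lower with the miRNA totals, and 7.97% higher and 60.6% lower with the summed totals of the 3 classes, where the median log2 fold change moved from -0.08 to -0.60 and -1.13. Normalized counts below use TMM scaling among miRNAs, and a change is relative to the bulk of miRNAs.

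The miRNA population of RS was concentrated on few species. The most abundant miRNA of a group took 30.9% of miRNA counts in RS and 15.8% in Spc on average, and the top 5 took 65.2% and 40.7%. By group mean miR-34c-5p led in both cell types, followed by miR-16-5p, but in the Spc library S29 miR-16-5p was above it (29006 against 26183 normalized counts). miR-34c-5p is one of the miR-34 and miR-449 miRNAs, which germ cells need for normal sperm formation. Its normalized counts were 88227, 91535 and 81141 in RS and 35849.9, 28819, 27145, 26183 and 35895 in Spc. Every RS library lay above every Spc library by more than the spread within either group (log2 fold change 1.499, SE 0.11, adjusted p = 2.13e-08, edgeR).

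The miR-34 and miR-449 family together took 38.3% to 41.3% of all miRNA counts in RS and 20.4% to 26.9% in Spc, with 5 of its 7 tested members higher and 1 lower (41.4% of all tested miRNAs were higher and 40.2% lower). Its median log2 fold change was 1.03, against -0.08 over all miRNAs, and became -0.03 with the summed totals of the 3 classes. miR-449a-5p had 13425, 13771 and 11712 normalized counts in RS and 7585, 6409, 5678, 5680.2 and 6308 in Spc, without overlap (log2 fold change 1.03, SE 0.10, adjusted p = 4.33e-07, edgeR), though with the summed totals its change was -0.03. miR-34b-5p, made from the same host transcript as miR-34c, had 6314, 7163 and 5820.1 and 3144, 2490.1, 2003, 1568 and 2249.9 (log2 fold change 1.49, SE 0.16, adjusted p = 1.31e-06, edgeR). miR-34a-5p went the other way. This member, which comes from a locus of its own on chromosome 4 and shares the seed GGCAGUG with miR-34b-5p and miR-449a-5p, had 396, 374 and 418 in RS and 3368, 3558, 3843, 3301 and 4716 in Spc (log2 fold change -3.24, SE 0.14, adjusted p = 1.38e-10, edgeR).

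The miR-15/16 family, best known for restraining cell cycle genes, rose in the same manner. It took 25.4% to 27.7% of miRNA counts in RS and 14.2% to 16.6% in Spc, with 5 of 8 tested members higher and 2 lower (41.4% and 40.2% of all miRNAs) and a median log2 fold change of 1.31 that stayed above 0 under both other scalings. miR-16-5p had 67305, 71719.7 and 72187 normalized counts in RS and 30618, 28656, 25645, 29006 and 26104 in Spc, again with no overlap (log2 fold change 1.33, SE 0.08, adjusted p = 3.11e-09, edgeR). miR-15b-5p changed by 1.502 (SE 0.11, adjusted p = 2.53e-08) and miR-195a-5p by 2.12 (SE 0.14, adjusted p = 6.22e-09), the highest log2 fold change among called miRNAs with a mean of at least 100 normalized counts. The X-linked member miR-322-5p, from the same gene cluster as miR-351, had 123, 139.9 and 149 in RS and 466, 573, 686, 624 and 746 in Spc and thus fell below all Spc libraries (log2 fold change -2.16, SE 0.16, adjusted p = 2.45e-08, edgeR).

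The plot of normalized counts by library shows these opposite members beside each other.

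**Figure D1:**
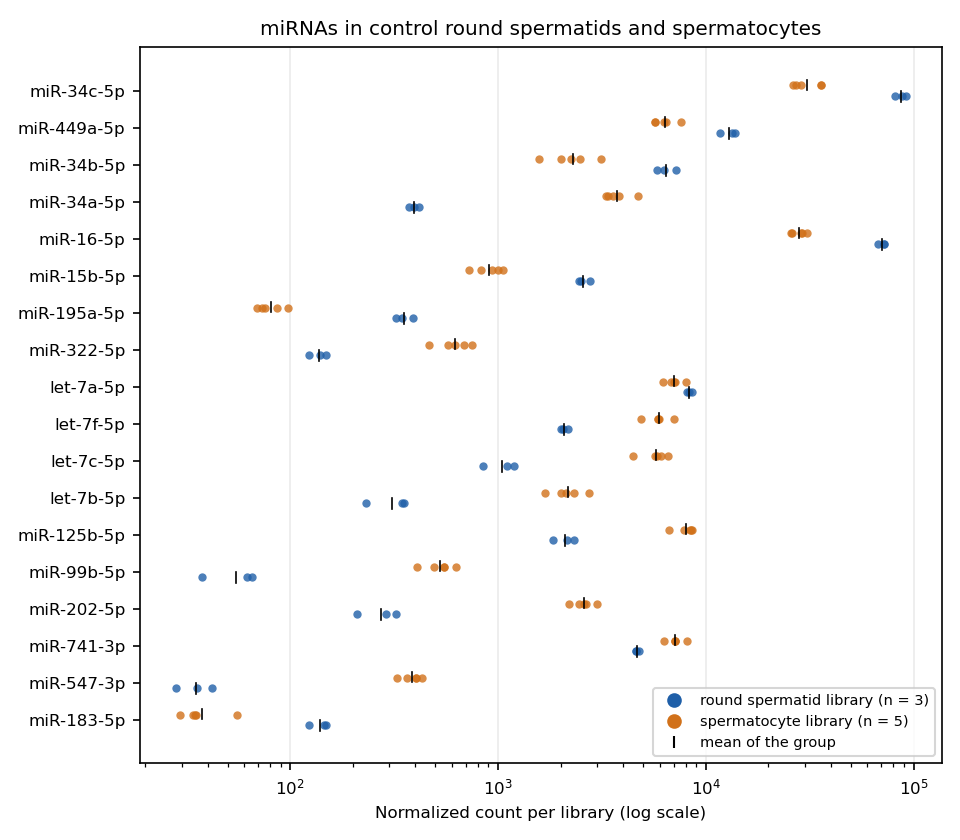
Normalized counts (log axis) of 18 miRNAs in the 3 control RS libraries (blue) and the 5 control Spc libraries (orange), with a bar at the mean of each group. miR-34c-5p, miR-449a-5p and miR-34b-5p lie higher in RS and miR-34a-5p lower, and miR-322-5p lies lower while miR-16-5p, miR-15b-5p and miR-195a-5p lie higher; no miRNA of the plot has overlapping groups.

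let-7 miRNAs, which promote differentiation in many tissues, fell. The let-7 and miR-98 list took 4.86% to 5.25% of miRNA counts in RS and 10.8% to 15.2% in Spc. Of 11 tested members 10 were lower and 1 higher, against 40.2% and 41.4% of all miRNAs, with a median of -1.51 that stayed below 0 under every scaling tried. The fall differed widely among members. let-7f-5p had 2045, 2021 and 2180.3 normalized counts in RS and 4902, 5923, 5948, 6997 and 5924 in Spc (log2 fold change -1.51, SE 0.11, adjusted p = 1.58e-08, edgeR). let-7c-5p had 1102, 851 and 1199.6 and 4479, 5839, 5719, 6591 and 6073 (log2 fold change -2.45, SE 0.14, adjusted p = 2.85e-09, edgeR). For both, all RS libraries lay far below the lowest Spc library. let-7b-5p changed by -2.80 (SE 0.18, adjusted p = 4.62e-09) and let-7e-5p by -2.97 (SE 0.17, adjusted p = 2.85e-09), whereas let-7g-5p changed by only -0.35 (SE 0.08, adjusted p = 0.00149). let-7a-5p was the exception with 8158, 8581 and 8280.0 in RS and 6196, 6819, 7010.3, 8050.3 and 7112 in Spc. Its 3 RS libraries lay just above the 5 Spc libraries (log2 fold change 0.24, SE 0.09, adjusted p = 0.0193, edgeR), and this call was lost with DESeq2 (adjusted p = 0.135) and without S18, S28 or S30 (adjusted p = 0.0505, 0.0765 and 0.0529) and the value turned to -0.29 with the miRNA totals.

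miRNAs of the miR-10, miR-99, miR-100 and miR-125 families, some of which lie beside let-7 genes, were mostly lower as well. Of 10 tested members of that list, 8 were lower and 1 higher (40.2% and 41.4% of all miRNAs) with a median of -2.23, and the list dropped to 0.915% to 1.23% of miRNA counts in RS from 5.15% to 6.95% in Spc. miR-125b-5p had 2146, 1836 and 2312 normalized counts in RS and 6672, 8521, 8567, 8424 and 7818 in Spc (log2 fold change -1.93, SE 0.11, adjusted p = 2.85e-09, edgeR). miR-125a-5p had 399.6, 354 and 462.7 and 1827, 2354, 2459, 2753 and 2416 (log2 fold change -2.53, SE 0.14, adjusted p = 2.28e-09, edgeR). In both, every RS library lay below every Spc library. miR-99b-5p changed by -3.23 (SE 0.19, adjusted p = 3.11e-09). miR-99b, let-7e and miR-125a lie within 1 short stretch of chromosome 17 (sequences above), and their 3 log2 fold changes were -3.23, -2.97 and -2.53. All of these miRNAs are also made by somatic cells, and Sertoli and Leydig cell genes were lower in RS in the long RNA as given above; their part in the fall was not tested.

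miR-202, a miRNA of gonadal somatic cells, had both arms among the 6 lowest called miRNAs with a mean of at least 100. miR-202-5p had 322.4, 209.9 and 290.3 normalized counts in RS and 2608, 2639.8, 3006, 2199 and 2462 in Spc (log2 fold change -3.23, SE 0.15, adjusted p = 3.21e-10, edgeR), and miR-202-3p changed by -3.31 (SE 0.20, adjusted p = 3.41e-09). Both arms were lower in every RS library. miR-199a-3p, whose counts cannot be told apart from those of miR-199b-3p and which mesenchymal cells make, changed by -1.56 (SE 0.16, adjusted p = 6.78e-07). It is 1 of 4 tested members of a list of widely somatic miRNAs, of which 3 were lower (40.2% of all miRNAs were) and miR-21a-5p was higher, at 0.31 (SE 0.08, adjusted p = 0.0026), turning to -0.22 and -0.76 with the miRNA and the summed totals. The 1 tested miRNA of muscle-like cells was higher, and neither of the 2 endothelial miRNAs was called. miRNAs of blood cells, 2 of which are arms of the miR-142a hairpin, were higher in 3 of 4 (41.4% of all miRNAs were higher), with 1.68 (SE 0.18, adjusted p = 8.55e-07) for miR-142a-5p and 2.44 (SE 0.51, adjusted p = 5.52e-04) for the myeloid miR-223-3p, which had 17.8, 34.03 and 41.1 normalized counts in RS and 4.24, 5.87, 14.4, 0.850 and 2.41 in Spc. The erythroid miRNAs miR-451a, miR-144-3p and miR-486a-5p did not reach the count minimum and made up at most 0.0143% of miRNA counts in any library. In the long RNA the 4 globin genes were higher in RS, while the 6 macrophage genes summed to 20.7 to 27.7 CPM in RS and 29.3 to 43.1 CPM in Spc, with 3 of them higher and Mrc1 lower. Their part in the blood cell miRNAs was not tested.

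The miR-506 family, a rapidly evolving group of miRNA genes on the X chromosome that is expressed mainly in testis, fell moderately. Of 27 tested members 22 were lower and 0 higher (101 of 251 miRNAs, 40.2%, were lower in all), and the family's share of miRNA counts was 7.40% to 7.73% in RS and 14.7% to 17.5% in Spc. The 3p arms of miR-465a, miR-465b and miR-465c have identical counts, so the same counts enter the family and its share 3 times. miR-741-3p, the most abundant of them, had 4591, 4609 and 4786 normalized counts in RS and 6274, 7117, 7109.6, 8112 and 7115 in Spc (log2 fold change -0.62, SE 0.09, adjusted p = 2.24e-05, edgeR). miR-743a-3p had 2081, 1978 and 1729 and 2080.4, 2257, 1907, 1944 and 1718, and its groups overlapped (log2 fold change -0.04, SE 0.10, adjusted p = 0.722, edgeR). miR-547-3p and miR-201-5p, which lie close together on the X chromosome apart from the main stretch of the family, were far lower, at -3.40 (SE 0.17, adjusted p = 6.94e-10) and -3.37 (SE 0.17, adjusted p = 6.94e-10). miR-547-3p had 35.6, 28.4 and 42.0 in RS and 328, 403, 433, 401 and 364 in Spc.

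Over all miRNAs placed on the X chromosome, 35 of 46 tested were lower and 4 higher with a median of -0.70, and their share of miRNA counts was 8.13%, 7.87% and 8.22% in RS and 16.2%, 18.1%, 18.1%, 19.3% and 17.7% in Spc (two-sided exact permutation p = 0.0357, the smallest possible). The 2 groups did not overlap. The 3 miR-465 3p arms with identical counts are among these X-linked miRNAs. Over miRNAs that RefSeq places on autosomes only, 70 of 162 tested were higher and 62 lower. Their median of 0.02 turned to -0.06 with DESeq2 and to -0.50 and -1.03 with the other totals, and they held 56.3% to 58.2% of miRNA counts in RS. The remaining tested miRNAs had no RefSeq place or places on both the X chromosome and an autosome. They enter neither count, and miR-34c-5p is among them.

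Members of the miR-200 family, which maintains epithelial identity, split by gene cluster. miR-200a-3p had 45.5, 28.4 and 37.5 normalized counts in RS and 243, 315, 324, 326 and 319 in Spc (log2 fold change -3.04, SE 0.18, adjusted p = 3.11e-09, edgeR). miR-200b-3p and miR-429-3p of the same cluster on chromosome 4 changed by -2.92 (SE 0.22, adjusted p = 2.53e-08) and -2.99 (SE 0.21, adjusted p = 1.27e-08). The second cluster lies on chromosome 6. From it, miR-141-3p had 39.6, 49.2 and 52.7 in RS and 20.1, 11.7, 22.6, 14.4 and 16.1 in Spc (log2 fold change 1.47, SE 0.24, adjusted p = 7.06e-05, edgeR), and miR-200c-3p changed by 0.99 (SE 0.27, adjusted p = 0.00439), which was -0.06 with the summed totals of the 3 classes. With TMM scaling, the seeds AAUACUG and AACACUG were thus each carried by miRNAs that rose and miRNAs that fell.

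Several smaller families had more members higher than lower. miR-183-5p, miR-96-5p and miR-182-5p, 1 cluster known from sensory cells, were all higher, and miR-183-5p had 148.4, 123 and 145 normalized counts in RS and 33.9, 29.4, 34.9, 55.2 and 35.4 in Spc (log2 fold change 1.87, SE 0.20, adjusted p = 9.79e-07, edgeR). Of the miR-17-92 cluster and its paralogs, known for promoting proliferation, 7 of 11 tested were higher and 1, miR-17-5p, lower, where 41.4% of all miRNAs were higher and 40.2% lower. Their median of 0.75 was 0.22 with the miRNA totals and turned to -0.31 with the summed totals. miR-25-3p had 4431, 4322 and 4071 and 1859, 1666, 1638, 1632 and 1733 with no overlap (log2 fold change 1.33, SE 0.08, adjusted p = 3.11e-09, edgeR). miR-20a-5p had 1185, 1189 and 1197 in RS and 1474, 1289.5, 1344, 1055 and 1313 in Spc, and the groups overlapped (log2 fold change -0.12, SE 0.10, adjusted p = 0.294, edgeR). miR-191-5p and miR-425-5p of 1 cluster changed by 0.78 (SE 0.09, adjusted p = 1.42e-06) and 1.29 (SE 0.11, adjusted p = 8.10e-08), the former turning to -0.28 with the summed totals. miR-184-3p had 2389.6, 2429 and 2080.3 in RS and 861, 808, 684, 874 and 751 in Spc (log2 fold change 1.53, SE 0.10, adjusted p = 5.42e-09, edgeR). The miR-30 list had 7 of 10 members higher and 1 lower, beside the same 41.4% and 40.2%, with a median of 0.42 that turned to -0.11 and -0.64 under the other scalings. The miR-29 miRNAs, which target collagen genes, were lower in 3 of 3, the most abundant being miR-29a-3p at -0.43 (SE 0.11, adjusted p = 0.00253).

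**Figure D2:**
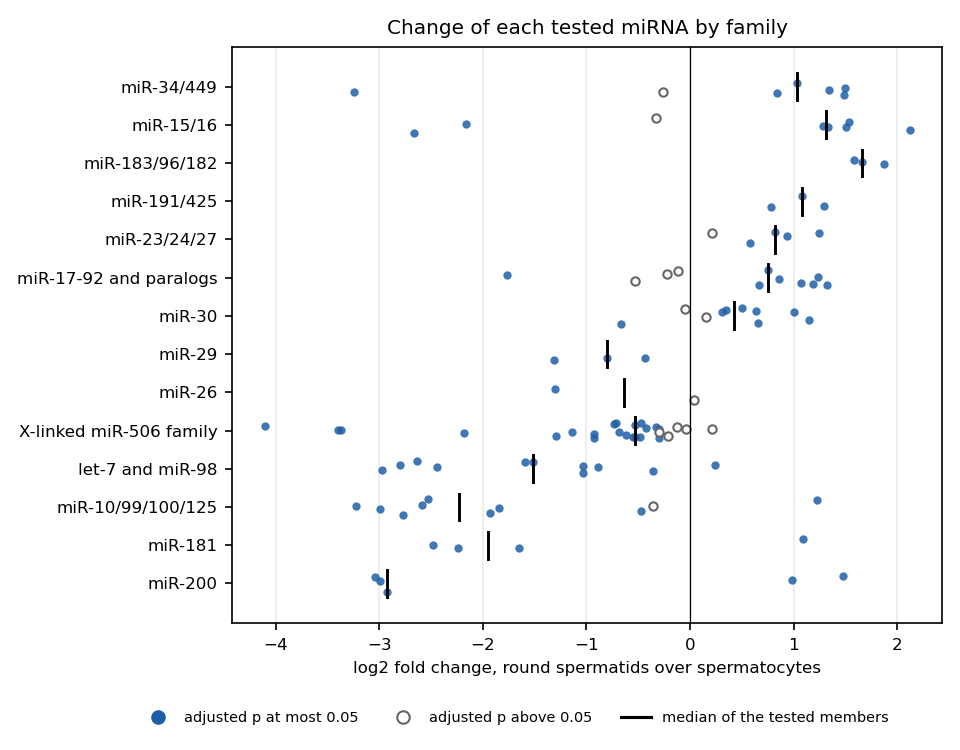
log2 fold change (RS over Spc) of every tested miRNA of the plotted families, which are not all the lists examined. Filled points passed an adjusted p of 0.05 and bars mark family medians. Among the plotted families the medians run from 1.66 for the miR-183 cluster down to -2.92 for miR-200. The miR-34 and miR-449, miR-15/16 and miR-200 families each hold called members on both sides of 0.

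Outside these families, miR-1981-5p had the lowest log2 fold change among called miRNAs with a mean of at least 100, -3.47 (SE 0.30, adjusted p = 1.14e-07), and miR-7a-5p the second highest, 1.99 (SE 0.16, adjusted p = 5.18e-08).

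Both arms were tested for 46 hairpins, of which 12 had log2 fold changes of opposite sign. Of the 46 pairs 27 had both arms called, and 25 of these 27 changed in the same direction, 3 of the pairs being miR-465a, miR-465b and miR-465c, whose 3p arms have identical counts. Across the 46 hairpins Spearman's rho between the changes of the arms was 0.72, a description over pairs that share their libraries.

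Among genes of the miRNA machinery in the long RNA, 12 of 17 tested were lower in RS and 2 higher, against 39.1% lower and 36.1% higher over all features. Ago2, the Argonaute that can cut its target, had 273, 227 and 273 normalized counts in RS and 961, 1296 and 1093 in Spc (log2 fold change -2.11, SE 0.16, adjusted p = 5.89e-05, edgeR). Ago4, the Argonaute linked to meiotic silencing of the X chromosome, changed by -1.92 (SE 0.11, adjusted p = 2.97e-05). Lin28b, which blocks let-7 processing, changed by -2.19 (SE 0.12, adjusted p = 2.39e-05), while Dicer1 and Drosha, the 2 enzymes that cut out the miRNA, changed by -0.90 and -0.54. Tnrc6b, a partner of Argonautes in silencing, was higher at 1.44 (SE 0.16, adjusted p = 2.13e-04).

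Most tested mitochondrial tRNA fragment classes were lower in RS, while nuclear ones were called in both directions, 36 of 131 higher and 17 lower. All 3 tested Asp classes and 4 of 6 Glu classes were among the nuclear ones that rose, and the other 29 belonged to other tRNAs. Of 167 tested fragment classes, which the tables define by the tRNA and the end they come from, 81 (48.5%) were called with edgeR, 37 (22.2%) higher and 44 (26.3%) lower, 32 (19.2%) passed a log2 fold change of 1.5 in size, and 79 (47.3%) had groups without overlap. With the tRNA totals the split was 17 higher and 76 lower and with the summed totals 10 and 112, where the median moved from -0.10 to -0.44 and -0.80. Without Spc library S30, 24 were higher.

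In RS more of the tRNA fragment counts came from the 5' end and fewer from the CCA end, the 3' tail of mature tRNAs. 5' fragments made up 38.6%, 40.1% and 47.2% of tRNA fragment counts in RS and 30.7%, 30.2%, 27.7%, 31.9% and 28.7% in Spc. CCA fragments made up 53.7%, 51.9% and 45.6% in RS and 59.5%, 61.1%, 63.5%, 59.9% and 62.1% in Spc. Neither share overlapped between the groups (two-sided exact permutation p = 0.0357 for each, the smallest possible). S20 was farthest from Spc in both. These are shares of counts and not of reads, since a read can count under several names. In S26, for example, Val-AAC and Val-CAC each had 2803 CCA counts.

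Over nuclear 5' fragments 8 of 37 were higher and 10 lower, close to the 22.2% and 26.3% of all fragment classes, and the median was -0.07. The 5' fragment of Glu-CTC was the most abundant tRNA fragment of RS. It had 9953, 9415 and 12563 normalized counts in RS and 3979, 5208, 3609.5, 6203 and 4304 in Spc (log2 fold change 1.19, SE 0.17, adjusted p = 3.72e-06, edgeR). The Asp-GTC 5' fragment had 6239.6, 5952 and 7415 and 2249, 2075, 2536, 2123 and 1688 (log2 fold change 1.62, SE 0.14, adjusted p = 2.57e-09, edgeR). Both were higher in each RS library than in any Spc library. The Glu-TTC 5' fragment had 2373, 2437 and 2850.3 in RS and 1413, 1332, 1349, 1413 and 1182 in Spc (log2 fold change 0.93, SE 0.11, adjusted p = 3.89e-07, edgeR). The Gly-GCC 5' fragment, a class known from mature sperm, did not follow, with 627, 579 and 719.8 in RS and 729, 773, 742.3, 815 and 710.2 in Spc. Its groups overlapped and its change did not pass the test (log2 fold change -0.23, SE 0.11, adjusted p = 0.0717, edgeR). Without S20 or without S26 it passed, at -0.32 and -0.34.

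The CCA fragments of the same tRNAs were also higher. Glu-TTC CCA fragments had 1986, 1748 and 1604 normalized counts in RS and 552, 445, 412, 346 and 402 in Spc (log2 fold change 2.05, SE 0.13, adjusted p = 1.07e-11, edgeR), the highest log2 fold change among called tRNA fragments with a mean of at least 100. Those of Glu-CTC and Asp-GTC changed by 1.44 (SE 0.13, adjusted p = 6.53e-09) and 1.16 (SE 0.12, adjusted p = 4.80e-08). Over all ends, nuclear Glu fragments were higher in 4 of 6 and lower in 0, and nuclear Asp fragments were higher in 3 of 3, with medians of 1.06 and 1.16 that stayed above 0 under each scaling. Together Glu fragments took 22.6% to 26.7% of tRNA fragment counts in RS and 10.6% to 15.5% in Spc.

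Over nuclear CCA fragments 13 of 49 were higher and 6 lower (22.2% and 26.3% of all fragment classes), with a median of 0.18 that turned to -0.17 and -0.52 with the tRNA and the summed totals. Among those not named so far, those of Ala-AGC were lower in RS, while those of Ala-TGC and Val-CAC were not called. Ala-TGC CCA fragments, the most abundant of Spc by group mean, had 4836, 4103 and 3886 in RS and 3806, 5332, 5719.7, 6111 and 4241 in Spc, and the groups overlapped (log2 fold change -0.24, SE 0.16, adjusted p = 0.22, edgeR). In S26, S29 and S30 the Glu-CTC 5' fragment was above them, at 3979, 6203 and 4304. Val-CAC CCA fragments differed by -0.11 (SE 0.12, adjusted p = 0.471). Ala-AGC CCA fragments had 467, 488 and 411 and 616, 992, 971, 977 and 646, all RS libraries being lower (log2 fold change -0.89, SE 0.15, adjusted p = 3.66e-05, edgeR). The 5' fragments of Leu-AAG and Leu-TAG, with nearly equal means, changed by -1.55 (SE 0.21, adjusted p = 1.73e-06) and -1.53 (SE 0.21, adjusted p = 1.9e-06).

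Mitochondrial tRNA fragments, which come from the tRNAs that serve protein synthesis inside mitochondria, were lower in 27 of 36 tested classes and higher in 1, with a median of -1.91 against 0.13 for nuclear ones (-0.21 and -0.60 with the tRNA and the summed totals, when the mitochondrial median was -2.25 and -2.65). Their share of tRNA fragment counts was 1.63%, 1.97% and 2.08% in RS and 5.12%, 3.93%, 4.29%, 3.901% and 4.76% in Spc, without overlap (two-sided exact permutation p = 0.0357, the smallest possible). Of mitochondrial fragments with no end label, 13 of 16 were lower with a median of -2.74. The count minimum could be met in Spc libraries alone, and several of these classes had few counts in RS, such as 0, 3 and 2 for Ala-TGC. The numbers of lower mitochondrial classes thus depend in part on the filter, while the share above includes all classes. The 1 tested mitochondrial 3' class, that of Gly-TCC, was also lower, with 0 counts in each RS library and 6.39 to 11.9 normalized counts in Spc. Gly-TCC fragments with no end label had 13.7, 9.64 and 9.87 normalized counts in RS and 139, 105, 111, 103 and 107 in Spc (log2 fold change -3.36, SE 0.24, adjusted p = 8.70e-11, edgeR). Mitochondrial CCA fragments were lower in 12 of 15 with a median of -1.63, and those of His-GTG changed by -0.69 (SE 0.19, adjusted p = 0.0045). The 5' fragment of mitochondrial Met-CAT was the single exception among the called ones. It had 247, 259 and 309.6 in RS and 80.1, 51.1, 84.9, 76.3 and 71.0 in Spc, every RS library being higher (log2 fold change 1.903, SE 0.15, adjusted p = 4.46e-10, edgeR). The Met-CAT fragments with no end label had 80.4, 77.2 and 66.4 and 114, 89.4, 73.5, 75.3 and 86.6 and overlapped between the groups (log2 fold change -0.24, SE 0.18, adjusted p = 0.28, edgeR).

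**Figure D3:**
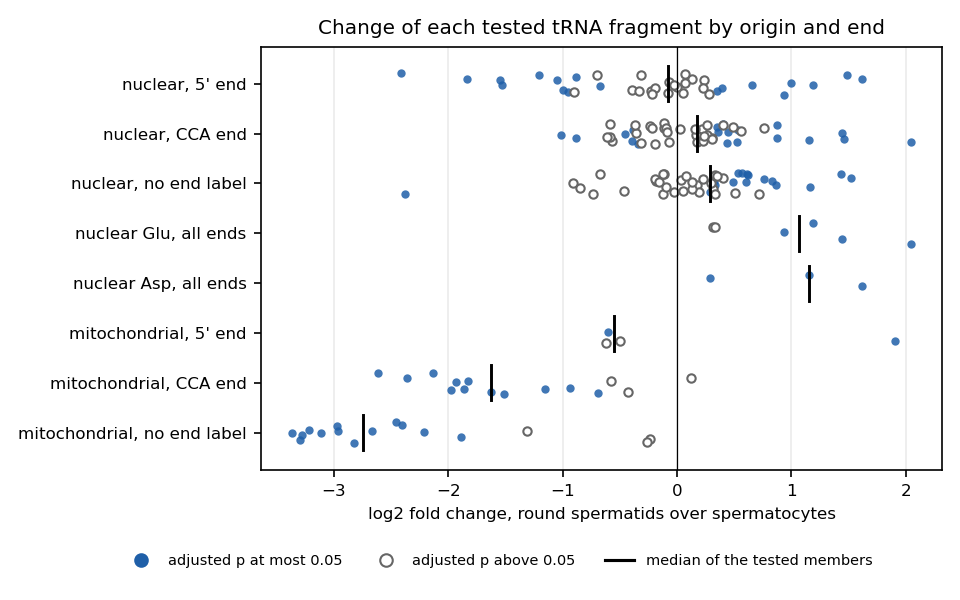
log2 fold change (RS over Spc) of each tested tRNA fragment class by origin and end; filled points passed an adjusted p of 0.05 and bars mark medians. Mitochondrial classes with no end label (median -2.74) and CCA ends (median -1.63) lie left of 0 apart from 1 CCA class that did not pass the test, and all nuclear Glu and Asp classes lie right of 0.

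Of 8 tested genes for cutting and maturing tRNAs in the long RNA, 5 were lower in RS and 2 higher (39.1% and 36.1% of all features).

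piRNA clusters differed by small amounts. All 214 clusters with counts had a log2 fold change under 1 in size, and 185 of them under 0.5. Even so, 130 clusters (60.7%) passed an adjusted p of 0.05 with edgeR, 71 (33.2%) higher and 59 (27.6%) lower, 58.4% had groups without overlap, and 0 passed a log2 fold change of 1.5. With the summed totals the split was 79 and 43, and in 1 fit with the cKO libraries, 16 in all, it turned to 25 higher and 52 lower. The 5 most abundant clusters took 24.9% of cluster counts in both cell types. Of these, 2-qE1-35981 (chromosome 2, named by chromosome band) had 364427, 363134 and 366133 normalized counts in RS and 360448, 364204, 363380.0, 359713 and 358958 in Spc, overlapping between the groups (log2 fold change 0.01, SE 0.01, adjusted p = 0.279, edgeR), and 9-qC-31469 differed by -0.07 (SE 0.02, adjusted p = 0.00273).

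The largest falls in mean normalized count were those of a pair of clusters on chromosome 17. 17-qA3-26735 (chr17:27325196-27367483, plus strand) had 155724, 151200.0 and 159902 normalized counts in RS and 249998, 242671, 243560.0, 243463 and 245791 in Spc (log2 fold change -0.66, SE 0.02, adjusted p = 4.09e-10, edgeR). 17-qA3-27363 (chr17:27288275-27325028, minus strand) had 247372, 240039 and 245827 and 315003, 312457, 311697, 316363 and 312589 (log2 fold change -0.36, SE 0.01, adjusted p = 2.01e-09, edgeR). All 3 RS libraries were lower than all 5 Spc libraries in both. The starts of the 2 precursors lie 168 bases apart, so that they run in opposite directions from 1 intervening stretch. Among smaller clusters, 10-qC1-117 had 620.2, 597 and 555 in RS and 1263, 1173, 1291, 952 and 1052 in Spc (log2 fold change -0.96, SE 0.10, adjusted p = 9.83e-06, edgeR), the lowest value of all clusters.

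Clusters named after protein-coding genes, whose piRNAs come largely from the untranslated ends of those genes, took 3.57%, 3.55% and 3.49% of cluster counts in RS and 3.00%, 3.07%, 3.00%, 3.10% and 3.06% in Spc, a small difference without overlap (two-sided exact permutation p = 0.0357, the smallest possible). Within them 29 of 114 were higher and 26 lower, where 33.2% and 27.6% of all clusters were. pi-Zmat3 had 1915, 1975 and 1747 normalized counts in RS and 978, 1085, 1039, 1092 and 1097 in Spc (log2 fold change 0.83, SE 0.06, adjusted p = 1.14e-06, edgeR), the highest change of all clusters. pi-Igsf9b and pi-Rc3h1 changed by 0.74 (SE 0.11, adjusted p = 1.89e-04) and 0.67 (SE 0.07, adjusted p = 9.43e-06). At the low end pi-1700016M24Rik and pi-Zfp346 changed by -0.85 (SE 0.07, adjusted p = 2.07e-06) and -0.70 (SE 0.07, adjusted p = 9.57e-06).

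Most precursor transcripts were lower in RS relative to genes. In the long RNA, scaled together with genes, 177 of 213 tested precursors were lower in RS and 18 higher, 91.5% in all, against 39.1% lower, 36.1% higher and 75.2% called over all long RNA features, with a median log2 fold change of -1.76 and a range from -4.83 to 2.12. Precursor counts came to 0.940% to 1.00% of the counts on genes and elements in RS and 2.97% to 3.71% in Spc. The precursor of 2-qE1-35981 had 308, 478 and 418 normalized counts in RS and 5035, 6769.6 and 5199 in Spc (log2 fold change -3.82, SE 0.20, adjusted p = 2.33e-05, edgeR). Its piRNAs, scaled among clusters and not with genes, differed by 0.01. The precursors of 17-qA3-26735 and 17-qA3-27363 changed by -2.76 (SE 0.41, adjusted p = 6.33e-04) and -2.72 (SE 0.34, adjusted p = 3.30e-04). Precursors of clusters named by band fell with a median of -2.93, 96 of 99 being lower, and those named after genes with a median of -0.92, 81 of 114 being lower. The latter can share reads with the messenger RNA of the gene.

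The changes of piRNAs are relative to other clusters and those of precursors relative to genes, so their directions cannot be set against each other. Across 213 clusters Spearman's rho between the 2 changes was -0.08, given as a description since clusters share their libraries. Relative to each other, without genes in the scaling, 91 precursors were higher and 89 lower.

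**Figure D4:**
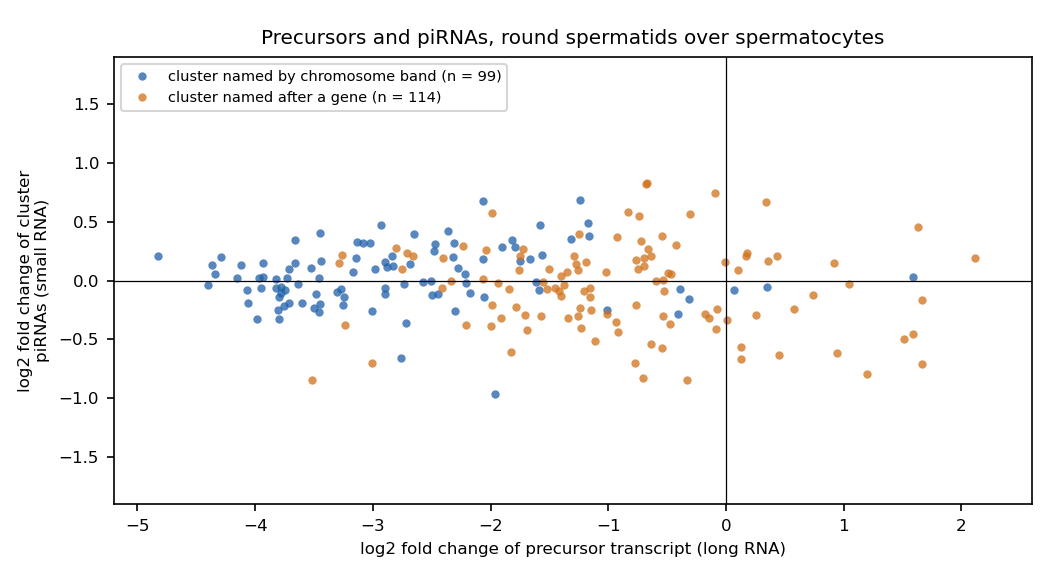
log2 fold change (RS over Spc) of the precursor in long RNA (x axis) against that of the cluster's piRNAs in small RNA (y axis, same scale), for 213 clusters. Precursors, scaled with genes, spread from -4.83 to 2.12 and lie mostly left of 0, with clusters named by band (blue) farther left than those named after genes (orange). The piRNAs, scaled among clusters, stay between -0.96 and 0.83.

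Of the genes of the piRNA pathway, 12 of 22 tested were lower in RS and 5 higher, where 39.1% of all long RNA features were lower and 36.1% higher. Piwil1, the PIWI protein that binds most pachytene piRNAs, had 3122, 4924 and 3740.3 normalized counts in RS and 35098, 44035 and 40309.9 in Spc (log2 fold change -3.34, SE 0.19, adjusted p = 2.48e-05, edgeR). Piwil2 changed by -2.08 (SE 0.13, adjusted p = 3.43e-05). Among single genes for precursor processing, Tdrd1 changed by -2.81, Tdrd5 by -3.46, the helicase Mov10l1 by -1.76 and the nuclease Pld6 by -2.38. Genes for precursor processing were not tested as a set of their own. Mybl1, the transcription factor that drives pachytene precursors, changed by -1.39 (SE 0.08, adjusted p = 2.57e-05). Tdrd6, a scaffold of the chromatoid body, had 52561, 54217 and 54944 in RS and 55096, 54534 and 49208 in Spc, overlapping between the groups (log2 fold change 0.03, SE 0.07, adjusted p = 0.76, edgeR). Kif17, a motor protein of round spermatids, was higher at 2.05 (SE 0.29, adjusted p = 5.80e-04).

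Small RNA counted on repeats differed by little more than 1 percentage point in its LINE and LTR shares, while some subfamilies differed more widely. Of 815 subfamilies tested, 306 (37.5%) were called with edgeR, 146 (17.9%) higher and 160 lower (113 and 193 with the repeat totals), 39.3% had groups without overlap, but only 11 (1.35%) passed a log2 fold change of 1.5 in size. LINE elements made up 26.6% ± 0.0899 of repeat counts in RS (SD, n = 3) and 25.4% ± 0.103 in Spc (SD, n = 5), and LTR elements 42.6% ± 0.0707 and 43.7% ± 0.126. Neither overlapped between the groups (two-sided exact permutation p = 0.0357, the smallest possible). The share of satellites overlapped, at 0.0553% ± 0.00312 in RS and 0.0558% ± 0.00328 in Spc.

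Small RNA on IAP elements, LTR retrotransposons still active in mice, fell. Of 22 tested IAP subfamilies 15 were lower and 0 higher (19.6% of all subfamilies were lower), with a median of -0.81, and their share of repeat counts was 0.604% to 0.659% in RS and 0.908% to 0.989% in Spc. IAPEz-int, the internal part of a young IAP, had 1145, 999.9 and 1131 normalized counts in RS and 2368, 2243, 2454, 2326 and 2259 in Spc (log2 fold change -1.09, SE 0.05, adjusted p = 5.19e-09, edgeR). IAPLTR2b had 82.5, 81.1 and 97.1 and 435, 428, 407, 493 and 397 (log2 fold change -2.29, SE 0.10, adjusted p = 2.75e-09, edgeR). In both, every RS library was below every Spc library, and the gap was wider for IAPLTR2b. The RLTR10 subfamilies, also of the ERVK group, were lower in 7 of 9 and higher in 0. MT2C_Mm, an LTR of the MERVL group, had 1509, 1578 and 1656 in RS and 3115, 2954, 3080.4, 3007 and 2991 in Spc (log2 fold change -0.94, SE 0.04, adjusted p = 2.75e-09, edgeR).

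Young LINE-1 subfamilies went in both directions. L1Md_T had 7823, 5977 and 7358 normalized counts in RS and 3453, 4063, 3909, 5193 and 4284 in Spc (log2 fold change 0.75, SE 0.10, adjusted p = 6.08e-05, edgeR). L1Md_F2 had 1681, 1558 and 1525 and 2326, 2378, 2462, 2499 and 2463 (log2 fold change -0.61, SE 0.05, adjusted p = 2.08e-07, edgeR). The former was higher and the latter lower in all RS libraries. L1Md_A changed by -0.76 (SE 0.10, adjusted p = 4.11e-05), and L1Md_F had 3161, 3019.7 and 2933 and 2878, 2918, 3057, 3240.2 and 3074, overlapping between the groups (log2 fold change 0.00, SE 0.04, adjusted p = 0.997, edgeR). L2c, the subfamily with the most counts, differed by 0.05 (SE 0.02, adjusted p = 0.101) and was not called. Over all 815 subfamilies 17.9% were higher and 19.6% lower, and of the 109 tested L1 subfamilies 28 were higher and 15 lower. B2 elements, which are SINEs, were lower in 4 of 5, and DNA transposons were higher in 22 of 101 and lower in 6. The lowest abundant subfamily was the DNA transposon FordPrefect with 35.7, 28.9 and 54.3 in RS and 172, 223, 244, 231 and 239.8 in Spc (log2 fold change -2.40, SE 0.18, adjusted p = 2.08e-07, edgeR). Reads were shared among the copies and subfamilies they match, so that counts of close subfamilies are not separate measurements.

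**Figure D5:**
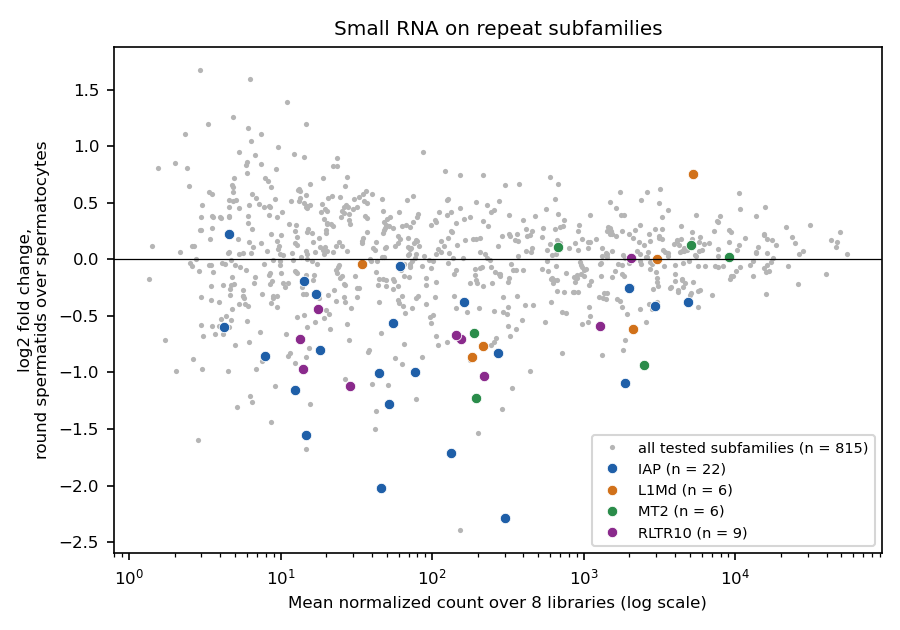
log2 fold change (RS over Spc) of small RNA on 815 repeat subfamilies against their mean normalized count (log axis). IAP (blue) and RLTR10 (purple) subfamilies lie mostly below 0, L1Md_T is the highest orange point at 0.75, and IAPLTR2b is the lowest blue point at -2.29.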

How the data were processed

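The authors trimmed small RNA reads (QIAseq miRNA kit) and assigned them with SPORTS1.1 to miRNAs (miRBase) and tRNAs (GtRNAdb, mm10); both deposited tables give whole-number counts, and NA, where a library had no read, was set to 0. The deposited cluster, repeat and precursor tables hold expected counts, since the authors let featureCounts share a read among the positions it matches, after HISAT2 2.1.0 for small RNA and STAR 2.7.1a for long RNA. In the miRNA and tRNA tables several names have equal counts in every library, so a read can count under more than 1 name. Whether reads of 1 molecule were merged by their identifiers is not stated. Columns of small RNA were matched to groups by cell fraction and genotype. The members, lists and tests were chosen with earlier results of these data known.

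Expected counts were rounded. No 2 libraries of a group agreed within sampling noise. Each table was fitted alone with edgeR 4.0.16 in R 4.3.3 (TMM factors, two-sided quasi-likelihood test, p-values adjusted by Benjamini and Hochberg over the table), the 8 control libraries only. miRNAs and tRNA fragments needed 10 counts in at least 3 libraries, clusters and repeats 1 in every library. Precursors were scaled with the genes of 3 control RS and 3 control Spc long RNA libraries, whose deposited counts came to 42225335 to 49940226 on genes and elements. A normalized count is a count divided by the library's effective size relative to the mean. SE belongs to the log2 fold change. Shares were compared by exact permutation over 56 regroupings in Python 3.11.15 with scipy 1.17.1 and pandas 2.3.3; figures used matplotlib 3.10.9. Tested on simulated data with a log2 change of 1, the fits recovered 82.0% of changed miRNAs, 78.8% of tRNA fragments, 100% of clusters and 81.0% of repeat subfamilies. In those data 50 of 251 miRNAs, 33 of 167 tRNA fragments, 42 of 214 clusters and 163 of 815 subfamilies changed, about equally up and down. Fewer changed than were called here, and all clusters here changed by less than 1, so the recovery does not extend to these calls. Named features were drawn from the 5 most abundant of each table, up to 6 highest and 6 lowest called ones with a mean of at least 100 and no overlap, and the most abundant members of lists; others were chosen after their values were seen: let-7b, let-7e, let-7g, miR-34a and other divergent family members, tRNA fragments of Gly-GCC and mitochondrial Met-CAT, and L1Md subfamilies. Sequences came from RefSeq (GRCm38.p6), which held 713 of 864 listed miRNAs. Alternatives were DESeq2 1.42.0, other library sizes, no count filter, all 16 small RNA libraries, each library left out and a replicate block for long RNA.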

Additional observations from a re-analysis of the deposited data

Results flagged for a closer look

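In 145 groups of 5 Spc values checked for a value far from the rest, 6 stood out, and chance flags about 1 in 20 groups. In Spc library S26, pi-Fth1 was lowest at 124 normalized counts, miR-200a-3p lowest at 243 and the mitochondrial Gly-TCC fragment highest at 139. In S29 miR-183-5p was highest at 55.2, in S30 miR-98-5p was lowest at 69.2, and in S27 the Asp-GTC CCA fragment was lowest at 147. In each of these 6 features all Spc libraries stayed on one side of all RS libraries.

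The difference between RS and Spc itself differed between control and Smg6-cKO libraries for 139 miRNAs, 28 tRNA fragments and 10 piRNA clusters (55.4%, 16.8% and 4.67% of those tested; edgeR, genotype by cell type term over all 16 libraries, adjusted p of at most 0.05, added after the data were seen) and for 0 repeat subfamilies. Among 3 cKO RS against 5 cKO Spc libraries alone, edgeR called 0 features in each table and DESeq2 also 0, with 9 miRNAs, 20 tRNA fragments, 17 clusters and 68 repeats at an unadjusted p under 0.05. Over all 251 tested miRNAs the median size of the log2 fold change was 1.14 in control libraries and 0.31 in cKO libraries. For let-7f-5p it was -1.51 in control libraries and 0.76 in cKO libraries, and for miR-34a-5p -3.24 and -0.11. Of the 5 cKO Spc libraries 4 had a miRNA profile nearer to the control RS mean than to the control Spc mean, up to a Pearson r of 0.958 against 0.868 over 251 miRNAs (S24), whereas in tRNA fragments all 5, and also all 3 cKO RS libraries, were nearer to the control Spc mean. The cause was not tested.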

How the results depend on the processing

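Shares here are of the features tested with TMM. With the table's own totals in place of TMM 26.7% of miRNAs and 10.2% of tRNA fragments were higher and 45.5% of tRNA fragments lower. With the summed totals of 3 classes 7.97% of miRNAs were higher and 60.6% lower, and 5.99% of tRNA fragments higher and 67.1% lower. Single directions turned for let-7a-5p (-0.29 and -0.83 with table and summed totals), miR-21a-5p (-0.22 and -0.76) and, with summed totals alone, miR-191-5p (-0.28), miR-200c-3p (-0.0638), miR-32-5p (-0.17), miR-449a-5p (-0.0258), miR-93-5p (-0.40) and the Val-CAC 5' fragment (-0.31). Of the 129 named features, 5 more lost their call with the table totals and 10 more with the summed totals, while 11 gained a call with each. A log2 fold change of 1.5 in size left 8.76% of miRNAs higher and 24.3% lower, 2.40% and 16.8% of tRNA fragments, 0 and 0 clusters, and 0.245% and 1.104% of repeat subfamilies. In 1 fit of all 16 libraries, which shares the spread with cKO libraries, 11.7% of clusters and 7.85% of repeat subfamilies were higher, so that more were lower than higher (25 clusters higher and 52 lower, 64 subfamilies higher and 116 lower), miRNAs split 79 higher and 94 lower, and 13 of 129 named features lost their call, among them let-7a-5p, miR-21a-5p, miR-223-3p, mitochondrial His-GTG CCA fragments, pi-Igsf9b and L1Md_T. Precursors scaled among themselves gave 91 higher and 89 lower. Marker and machinery genes split 36 higher and 57 lower, and 28 and 71 with library totals. DESeq2, no count filter and identical features entered once (added after the data were seen) kept each of these counts within 1.5 times.

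Leaving out each library gave 37.8% to 42.2% higher and 36.7% to 39.8% lower miRNAs, 14.4% to 21.0% and 22.8% to 29.3% tRNA fragments, 27.6% to 32.2% and 21.0% to 28.0% clusters, 13.4% to 18.04% and 16.3% to 19.5% repeat subfamilies, and 17 to 19 and 174 to 179 precursors. The lowest tRNA share was without Spc library S30. The difference in shares (RS minus Spc, percentage points) went from -1.15 to -0.992 for miRNAs, -0.221 to -0.141 for tRNA fragments, 1.16 to 1.36 for clusters, -10.2 to -9.45 for X-linked miRNAs, 9.47 to 13.8 for 5' fragments, -12.5 to -8.42 for CCA fragments and -2.63 to -2.33 for mitochondrial fragments. With 1 library fewer this two-sided permutation test, which doubles the smaller tail, cannot reach p of 0.05, so these are values with no test.

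No paired analysis was possible for small RNA because the columns carry no replicate number. In the long RNA, a replicate block gave 18 precursors higher and 175 lower; same-numbered libraries did not deviate together (r = -0.16, -0.13 and -0.26 over 15786 features), and none correlated best with its own number, so the numbers do not pair them. At 43073 to 72831 tRNA fragment and 141642 to 306864 miRNA counts per library, 167 of 284 tRNA fragment classes and 251 of 864 miRNAs reached the count minimum; the others were not tested.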
